A study of Mus musculus with 36 samples.

Results

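The clustered protocadherin genes of the β and γ clusters were followed through 4 kinds of mouse sample that either lacked or retained the histone variant macroH2A. The genes were chosen by name and annotation, as the protein-coding genes called Pcdhb, Pcdhga, Pcdhgb or Pcdhgc followed by a number. This rule was set with earlier results of these data known. Of the 54115 genes with a transcript in the files, 43 met it. They comprise 22 Pcdhb, 12 Pcdhga, 6 Pcdhgb and 3 Pcdhgc genes. All 43 lie on the plus strand of mouse chromosome 18, with the β genes between 37264938 and 37524479 and the γ genes between 37661793 and 37841873 in GRCm38. Pcdhgb8 fits the name but is annotated as a polymorphic pseudogene, and it was therefore not a member. No sequence of these genes is shown here.

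Clustered protocadherins are cell-surface proteins of the cadherin superfamily that bind the same isoform on a neighbouring cell, and they are best known for giving neurons a surface identity. Each variable exon has its own promoter, and a cell uses only some of these promoters. The choice depends on CTCF and cohesin, which bring a chosen promoter to a distant enhancer, and on DNA methylation, which keeps unchosen promoters silent. A Pcdhb gene is a single coding exon with its own 3′ end, whereas every γ variable exon is spliced to constant exons that all γ genes share. The C-type genes Pcdhgc3, Pcdhgc4 and Pcdhgc5 lie at the end of the γ cluster and, in neurons, are used more uniformly than the other γ genes. MacroH2A is an H2A variant with a large extra domain, encoded by H2afy (macroH2A1) and H2afy2 (macroH2A2) and found mainly in repressed chromatin.

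The study profiled RNA from double-knockout (dKO) mice, which lack both macroH2A genes in every cell, and from wild-type (WT) mice. There were 12 bulk melanomas (6 dKO and 6 WT), 8 samples of cancer-associated fibroblasts (CAFs) sorted on CD140a and 8 samples of sorted CD8+ T cells (4 dKO and 4 WT each), all taken 50 days after induction. Immortalized dermal fibroblasts (iDFs) gave 8 further samples, 2 per genotype after 24 h of starvation in 0.5% serum (0 min) and 2 per genotype after 30 min of serum. All tumour-bearing mice of both genotypes carried Braf CA and Tyr-CreERT2, so that 4-hydroxytamoxifen on the skin activated Braf in melanocytes. They had a mixed background, mostly 129S with B6 and FVB, and the age of each mouse is not given in the labels. Both sexes were used for the tumours (1 female and 5 male dKO, 4 female and 2 male WT) and for the sorted cells (2 female and 2 male of each genotype), and the tumour libraries were made in 3 batches of 2 dKO and 2 WT tumours. All iDF samples were male, and the 2 samples of a group are experimental replicates. The number of iDF lines behind each genotype is not given, so genotype and line cannot be told apart in the iDFs, and p-values there measure only the spread between cultures.

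The total of estimated counts in genes was 17526618 to 85432397 per library. CAFs and iDFs carried the fibroblast markers Pdgfra (CAFs 327 to 611 CPM, iDFs 181 to 292 CPM) and Col1a1, CD8+ T cells carried Cd3e (572 to 878 CPM), and the melanomas carried Sox10 (220 to 686 CPM). The targeted genes still gave reads in dKO samples, at 61.2 to 82.4 CPM for H2afy in dKO tumours against 90.5 to 122 CPM in WT tumours. At 0 min, H2afy averaged 63.1 ± 2.93 CPM in dKO iDFs and 93.1 ± 1.78 CPM in WT iDFs (SD, n = 2 each). The log2 fold change of H2afy2 was -0.98 in tumours (adjusted p = 0.174), -0.81 in CAFs (adjusted p = 0.0022) and -0.69 in iDFs at 0 min, so reads from both targeted loci remained. CPM is the count scaled to library size after TMM normalization. TPM also divides by transcript length and is used wherever genes are compared with each other. A gene was called at an adjusted p below 0.05 together with an absolute log2 fold change above 0.75, by the quasi-likelihood test of edgeR with Benjamini-Hochberg adjustment over all genes tested.

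The number of clustered protocadherin genes with reads differed between cell types. The study also used different library kits or amounts of RNA for the tumours, CAFs, CD8+ T cells and iDFs. Their part in the differences between cell types was not tested. In CAFs, 42 of the 43 genes reached at least 1 CPM in every library, and in bulk tumours 38 did, with 42 above a mean of 1 CPM. In CD8+ T cells only Pcdhgc3 reached 1 CPM in every library. Pcdhb1 had no count in any of the 36 libraries, which allows at most 0.0368 to 0.174 CPM per library (3 counts, counting error only). The iDFs were split along the β cluster, at a boundary that was placed after the values were seen. Pcdhb14 to Pcdhb22 all exceeded 1 CPM in every iDF library, whereas of Pcdhb1 to Pcdhb13 only Pcdhb5 did. The last 9 genes of the cluster held 91.5% to 96.7% of the Pcdhb TPM in iDFs, against 35.6% to 42.0% in CAFs and 27.7% to 40.8% in tumours. Reads in cultured dermal fibroblasts of both genotypes thus came mostly from the γ-proximal end of the β cluster, and those in sorted CAFs from nearly all of it. Culture and cell source differ between iDFs and CAFs, and their part in this was not tested.

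**Figure D1:**
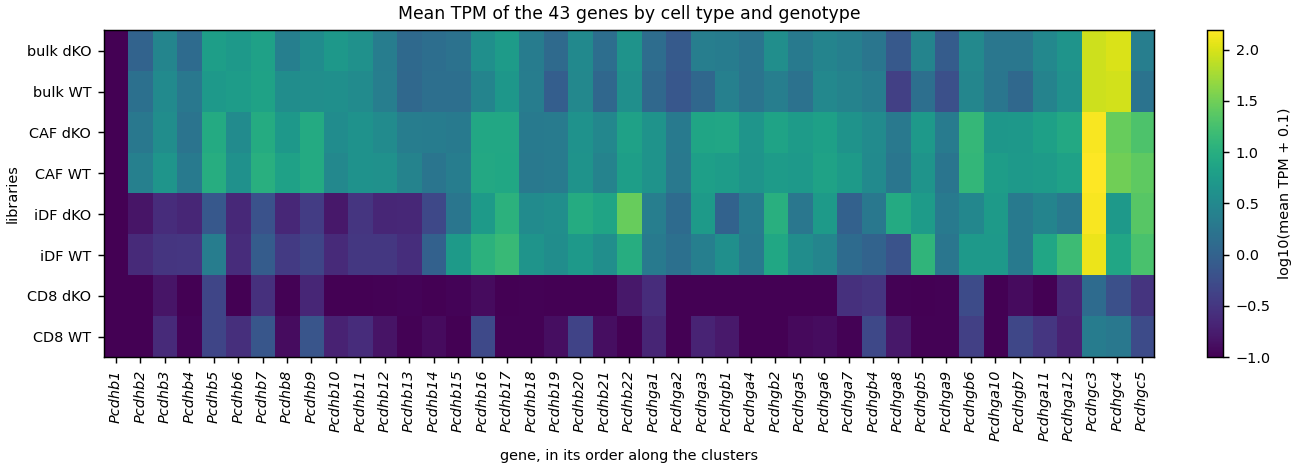
Mean TPM of each of the 43 genes (columns, in their order along the clusters) in each cell type and genotype (rows, dKO above WT), on a log10 scale after adding 0.1. The iDF rows are dark from Pcdhb1 to Pcdhb13 and bright from Pcdhb14 to Pcdhb22, Pcdhgc3 is bright in every row except CD8+ T cells, and Pcdhga8 and Pcdhga12 differ in brightness between the dKO and WT iDF rows.

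Per length, Pcdhgc3 was the leading member in CAFs (148 ± 12.4 TPM, SD, n = 8) and in iDFs (134 ± 12.7 TPM, SD, n = 8). In CAFs Pcdhgc4 (29.9 ± 4.02 TPM) and Pcdhgc5 (22.1 ± 7.03 TPM) came next, and their ranges over libraries overlapped. In iDFs Pcdhgc5 (20.8 ± 6.22 TPM), Pcdhb22 (18.6 ± 9.77 TPM) and Pcdhb17 (12.4 ± 1.66 TPM) followed, also with overlapping ranges. In tumours Pcdhgc4 (97.0 ± 27.0 TPM, SD, n = 12) and Pcdhgc3 (87.8 ± 23.9 TPM) did not differ beyond their spread, and the next member, Pcdhb7, was at 6.66 ± 1.21 TPM. In CD8+ T cells the same C-type genes led at far lower levels (Pcdhgc3 1.64 ± 1.11 TPM and Pcdhgc4 1.15 ± 1.27 TPM, SD, n = 8), followed by Pcdhb7 at 0.399 ± 0.504 TPM. The order of C-type genes, and their places among the other members, depend on how reads from the shared constant exons were divided. The tumour reads of Pcdhgc4 fell mainly on a transcript of 2272 bases (69.2 to 129 TPM in dKO and 56.8 to 125 TPM in WT tumours). The full-length transcript of 5024 bases stayed below 1 TPM in every tumour. The same short transcript held 91.6% of the Pcdhgc4 counts in CAFs and 77.2% in CD8+ T cells. In CAFs the full-length transcript was at 0.413 to 1.13 TPM in dKO and 0.444 to 1.13 TPM in WT. Of the 75-base stretches of that short transcript, 93.1% are also present in another gene. By the same measure, Pcdhb genes share a median of 1.2% (0.0% to 9.0%) of their longest transcript and Pcdhga and Pcdhgb genes 44.7% (41.0% to 64.7%), so that single γ values are less certain than single β values, and sums over γ genes less dependent on the division.

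The summed level of the clusters was similar in dKO and WT samples of each fibroblast or tumour type. All 43 genes together gave 834 to 870 CPM in dKO iDFs against 751 to 801 CPM in WT iDFs (4 libraries each, both times), 892 to 997 CPM in dKO CAFs against 912 to 1010 CPM in WT CAFs, and 662 to 936 CPM in dKO tumours against 501 to 976 CPM in WT tumours. In CAFs and tumours the ranges overlapped. In iDFs the parts moved in different directions without overlap between genotypes. The Pcdhb sum was 202 to 224 CPM in dKO iDFs against 168 to 180 CPM in WT iDFs, the Pcdhga and Pcdhgb sum was 173 to 199 CPM against 206 to 225 CPM, and the Pcdhgc sum was 450 to 469 CPM against 377 to 401 CPM, each with dKO first. At 0 min these are log2 ratios of 0.26, -0.23 and 0.24, and the first was 0.16 when only the longest transcript of each gene was counted. No test was run on the sums.

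**Figure D2:**
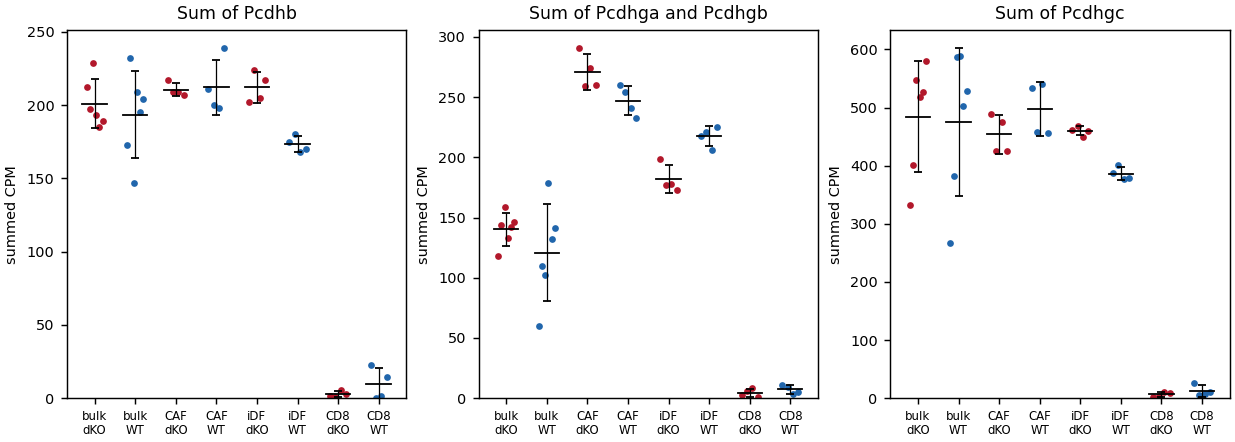
Summed CPM of the Pcdhb genes, of the Pcdhga and Pcdhgb genes and of the Pcdhgc genes in each library (points, dKO red and left of WT blue), with the mean (long bar) and SD (whiskers) of each group, iDF libraries of both times together. The genotypes overlap in tumours and CAFs and are separate in iDFs, where the dKO sums are higher for Pcdhb and Pcdhgc and lower for Pcdhga and Pcdhgb.

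Behind these similar totals, the levels of single members differed between dKO and WT iDFs. Of the 36 members that passed the low-count filter in iDFs, 7 were higher and 10 were lower in dKO at 0 min. That is 47.2% of those tested, where 9.13% of all 14382 genes tested were called (4.03% higher and 5.1% lower). The members were chosen with earlier results of these data known, so this share is a description. At 30 min 6 were higher and 9 lower (41.7%, against 9.05% of all genes, 3.98% higher and 5.07% lower). The 15 called at 30 min were all called at 0 min in the same direction. Pcdhgb4 and Pcdhgb6 were called at 0 min only. The median log2 fold change of the 36 was -0.18 at 0 min (0 over all genes), so the calls lay on both sides of a centre close to no change. The 7 members below the filter (Pcdhb1, Pcdhb2, Pcdhb6, Pcdhb8, Pcdhb10, Pcdhb12 and Pcdhb13) stayed under 1 CPM in all 8 iDF libraries.

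The largest difference was that of Pcdhga8. It stood at 30.3 and 24.2 CPM in dKO iDFs at 0 min against 1.34 and 1.77 CPM in WT iDFs, and at 27.7 and 23.3 CPM against 1.2 and 2.02 CPM at 30 min. All 4 dKO libraries were thus more than an order of magnitude above all 4 WT libraries. The log2 fold change was 4.13 at 0 min (SE 0.22, adjusted p = 9.67e-06) and 3.99 at 30 min (SE 0.23, adjusted p = 1.3e-05). Within the TPM of the Pcdhga and Pcdhgb genes, Pcdhga8 held 13.3% to 14.8% in dKO iDFs at 0 min and 0.611% to 0.797% in WT iDFs.

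Pcdhga12, the last Pcdhga gene of the cluster, showed the opposite. It was at 7.45 and 4.35 CPM in dKO iDFs at 0 min against 45.5 and 46.1 CPM in WT iDFs, and at 5.13 and 5.33 CPM against 47.7 and 46.1 CPM at 30 min. Pcdhga12 had the highest TPM of all Pcdhga and Pcdhgb genes in WT iDFs (15.3 ± 0.326 TPM, SD, n = 4). Its log2 fold change was -2.94 at 0 min (SE 0.18, adjusted p = 5e-05) and -3.17 at 30 min (SE 0.19, adjusted p = 4.52e-05).

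The other γ genes called lie between these extremes. Pcdhga11, next to Pcdhga12, was at 9.94 and 7.66 CPM in dKO iDFs at 0 min against 21.8 and 23.6 CPM in WT iDFs (log2 fold change -1.36, SE 0.13, adjusted p = 8.86e-05). Pcdhgb5 was at 18.7 and 16.2 CPM in dKO against 34.3 and 34.4 CPM in WT (-0.98, SE 0.08, adjusted p = 4.29e-05). Pcdhgb1, near the start of the cluster, was at 2.8 and 1.87 CPM in dKO against 10.6 and 10.2 CPM in WT, a log2 fold change of -2.14. These 3 genes were low in every dKO library at both times. Pcdhga5 (log2 fold change -0.83, and -0.67 and not called without dKO 0 min replicate 2) and Pcdhgb6 (-0.87) were lower by less, and Pcdhgb6 at 30 min (-0.74, adjusted p = 0.00182) fell short of the fold threshold alone. Higher in dKO were Pcdhga6, at 17.2 and 16.4 CPM against 8.48 and 8.24 CPM in WT (1.01, SE 0.11, adjusted p = 0.000151), and Pcdhga3, at 15.2 and 17.3 CPM against 5.72 and 7.86 CPM in WT (log2 fold change 1.27). Pcdhgb4 was also higher (log2 fold change 1.2, adjusted p = 0.01), and was no longer called without WT replicate 2 (1.02, adjusted p = 0.0877) or with the longest transcript of each gene alone (0.45, adjusted p = 0.915).

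Called γ genes and γ genes that were not called are interspersed along the cluster. Pcdhgb2, between Pcdhga4 and Pcdhga5, was at 26.6 and 28.3 CPM in dKO iDFs against 22.9 and 21.6 CPM in WT iDFs (log2 fold change 0.3, adjusted p = 0.00739, below the fold threshold). Pcdhga2, Pcdhga4, Pcdhga7, Pcdhga10 and Pcdhgb7 had adjusted p-values of 0.192 to 0.665 at 0 min. Pcdhga1 (log2 fold change 0.43, adjusted p = 0.0258) and Pcdhga9 (0.57, adjusted p = 0.0684) were also not called, although every dKO library was above every WT library at 0 min. Ranked by TPM, the 18 Pcdhga and Pcdhgb genes gave Spearman correlations of 0.91 to 0.99 (median 0.96) between iDF libraries of the same genotype (12 pairs) and of 0.14 to 0.38 (median 0.29) between a dKO and a WT library (16 pairs). The ranges do not overlap. The same 18 genes in CAFs gave 0.7 to 0.98 within a genotype and 0.64 to 0.88 between genotypes. These correlations are a description across genes, which share constant exons, and libraries of an iDF genotype may share a line.

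**Figure D3:**
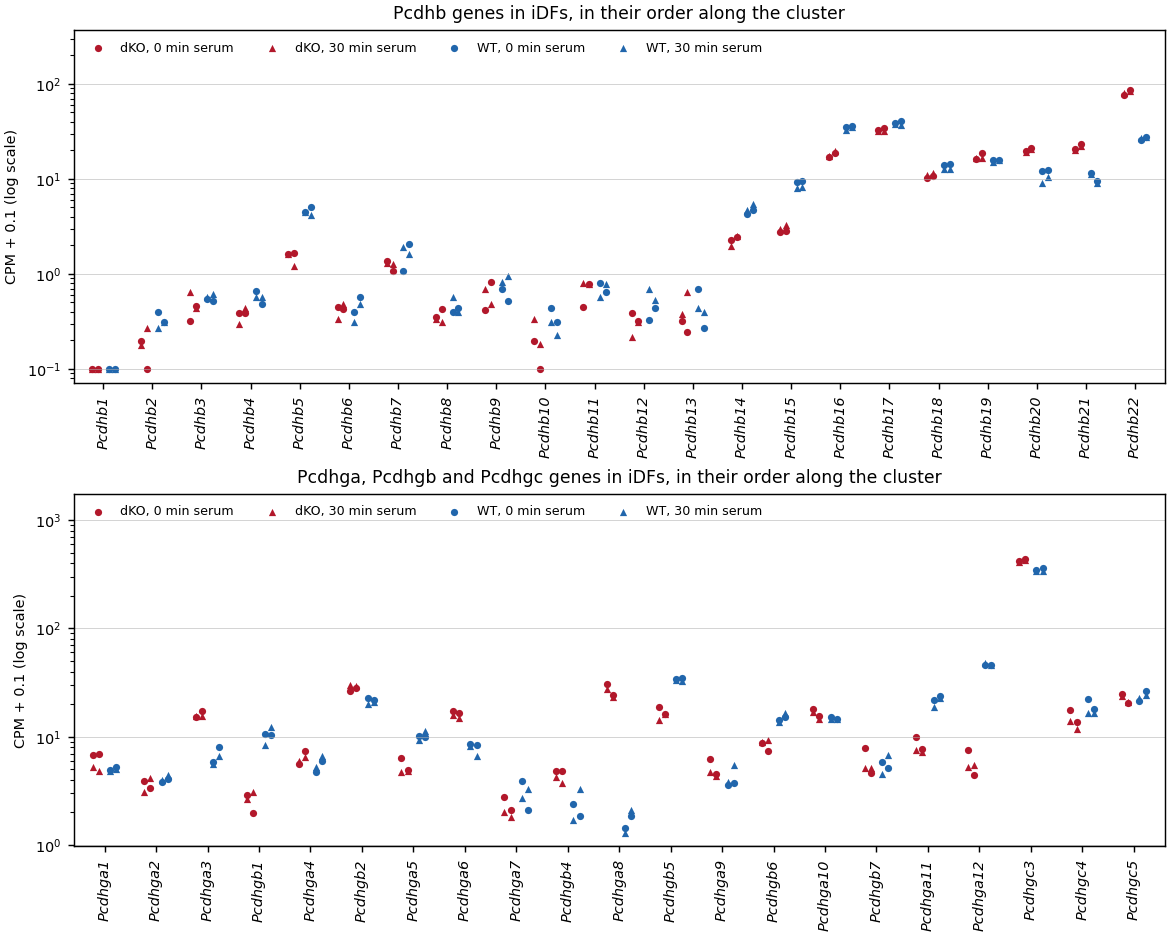
CPM of every member in every iDF library on a log axis (0.1 added), Pcdhb genes above and γ genes below, in their order along the cluster, dKO (red) left of WT (blue), circles 0 min and triangles 30 min of serum. The 4 libraries of a genotype lie close together at most genes, and the genotypes separate most at Pcdhga8 (dKO 23.3 to 30.3 CPM, WT 1.2 to 2.02 CPM) and Pcdhga12 (dKO 4.35 to 7.45 CPM, WT 45.5 to 47.7 CPM).

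In the β cluster the direction of the calls changed with position. Pcdhb22, the last β gene, was the called member with the smallest p. It was at 75.9 and 87.0 CPM in dKO iDFs at 0 min against 25.4 and 27.8 CPM in WT iDFs, and at 79.2 and 83.9 CPM against 26.9 and 27.2 CPM at 30 min (log2 fold change 1.61, SE 0.08, adjusted p = 1.8e-06, and 1.59, SE 0.08, adjusted p = 2.07e-06). It held 37.2% to 39.4% of the Pcdhb TPM in dKO iDFs at 0 min and 15.1% to 15.2% in WT iDFs. Its neighbour Pcdhb21, whose 3′ end overlaps Pcdhb22, was at 20.6 and 23.2 CPM in dKO against 11.3 and 9.42 CPM in WT (log2 fold change 1.08 at 0 min, 1.06 at 30 min). Pcdhb20 was at 19.6 and 21.1 CPM in dKO against 11.9 and 12.3 CPM in WT at 0 min. Its log2 fold change of 0.75 sat on the fold threshold at 0 min and lost the call, but not the adjusted p, in 5 of the 13 alternatives, whereas at 30 min it was 1.04 (SE 0.1, adjusted p = 7.44e-05) and was called in all.

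The called genes before this end were lower in dKO. Pcdhb15 was at 2.64 and 2.73 CPM in dKO iDFs at 0 min against 9.11 and 9.34 CPM in WT iDFs (log2 fold change -1.78, SE 0.13, adjusted p = 1.44e-05). Pcdhb16 was at 16.9 and 18.7 CPM in dKO against 35.0 and 35.6 CPM in WT (-0.99, SE 0.08, adjusted p = 2.73e-05). Both kept separate genotypes at 30 min, with log2 fold changes of -1.41 and -0.88. Pcdhb14 was at 2.2 and 2.37 CPM in dKO against 4.18 and 4.56 CPM in WT (log2 fold change -0.93), and Pcdhb5, the only called gene of the first 13, was at 1.53 and 1.55 CPM in dKO against 4.33 and 4.98 CPM in WT (-1.59). Between the lower and the higher group stood Pcdhb17 (-0.24), Pcdhb18 (-0.45) and Pcdhb19 (0.14) at 0 min, none of which passed the fold threshold. Pcdhb19 was the first β gene with every dKO library above every WT library, a separation whose share over all genes was not computed. From Pcdhb14 to Pcdhb22 the fold changes thus run from negative to positive along the chromosome. Over 21 β genes, Spearman correlations were 0.86 to 0.96 between dKO and WT iDF libraries and 0.89 to 0.98 within a genotype (description only). These ranks include Pcdhb2 to Pcdhb13, of which only Pcdhb5 reached 1 CPM in every iDF library. The split along the cluster thus enters these values, and they are not comparable with those of the γ genes. The β gene with the highest TPM was Pcdhb17 in every WT iDF library and Pcdhb22 in every dKO iDF library.

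None of the C-type genes was called in iDFs. Pcdhgc3 was at 420 and 435 CPM in dKO iDFs at 0 min against 344 and 357 CPM in WT iDFs, and at 412 and 427 CPM against 337 and 339 CPM at 30 min. All dKO libraries were above all WT libraries, by a log2 fold change of 0.29 (SE 0.04, 95% interval 0.2 to 0.38, adjusted p = 0.000664), which is under the fold threshold. How many of all genes were separated in this way in iDFs was not computed. Pcdhgc4 was at 17.4 and 13.7 CPM in dKO against 22.2 and 18.0 CPM in WT at 0 min (log2 fold change -0.37, adjusted p = 0.079). Pcdhgc5 was at 24.6 and 20.4 CPM in dKO against 21.1 and 26.2 CPM in WT, with overlapping genotypes (log2 fold change -0.07, 95% interval -0.36 to 0.22).

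Serum was the second comparison the iDFs allow. None of the 36 members was called after 30 min of serum in dKO iDFs (3.33% of all genes were called, 2.15% higher and 1.18% lower) or in WT iDFs (2.04%, 1.61% higher and 0.438% lower), and DESeq2 called none either. At an unadjusted p under 0.05, 2 members were lower after serum in dKO (11.6% of all genes; Pcdhga1 -0.45, adjusted p = 0.0548, and Pcdhgb5 -0.2, adjusted p = 0.204) and 1 in WT (8.77% of all genes; Pcdhb20 -0.32, adjusted p = 0.122). The interaction of genotype and serum was called for no member by either tool (0.0139% of all genes by edgeR), with 1 member higher at an unadjusted p under 0.05 (1.11% of all genes). Across the 36 members the log2 fold changes of dKO over WT at 0 and at 30 min had a Pearson correlation of 0.97, and no member differed by more than 0.7 between the times. In the same cells Taf7, a gene between the β and γ clusters that encodes a subunit of the general transcription factor TFIID, was higher after serum in both genotypes (log2 fold change 0.82 in dKO, adjusted p = 0.00237, and 1.01 in WT, adjusted p = 0.00112).

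Genes around the clusters and genes for their known regulators were followed as fixed lists. No gene of 12 for CTCF and the cohesin complex and none of 16 silencing and DNA methylation regulators was called between dKO and WT iDFs at either time. At 0 min their log2 fold changes ran from -0.01 to 0.41 and from -0.51 to 0.35, within the fold threshold. At an unadjusted p under 0.05, 5 of the 12 were higher and 0 lower, and 5 of the 16 were higher and 3 lower. Of all 14382 genes tested, 3131 were higher and 3066 lower at that p. Of the 15 measured genes beside the clusters, only Arap3, which encodes a GTPase-activating protein, was called, lower in dKO (log2 fold change -1.96 at 0 min, adjusted p = 0.000124). Of 14 Pcdha genes upstream of the β cluster, 2 passed the filter. None was called at 0 min, and Pcdha11 was higher in dKO at 30 min (2.29, adjusted p = 0.0107). Its level was low, with 87 counts over all iDF libraries of both times together. A second entry of the same name held 9 counts. Protocadherins outside the clusters, which are single genes elsewhere in the genome, were called in 4 of 7 cases at 0 min. Pcdh10 (-4.78, adjusted p = 6.31e-06) and Pcdh11x (-4.75, adjusted p = 7.01e-05) were lower and Pcdh9 (0.86, adjusted p = 0.000261) and Pcdh17 (1.66, adjusted p = 0.0138) higher in dKO. None of 14 tested genes for protocadherin processing and signalling was called.

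The state of the iDFs differed as well. The 10 fibroblast markers summed to 27200 to 28600 CPM in dKO iDFs against 28300 to 31800 CPM in WT iDFs over both times, with Fap (-1.8) and Lum (-1.86) among 3 called lower at 0 min. The 8 neuron markers summed to 70.5 to 84.2 CPM in dKO against 139 to 149 CPM in WT, with Map2 (-1.02) and Tubb3 (-1.1) called lower and no count of the defining markers Rbfox3 and Snap25 in any iDF library. Of the 8 keratinocyte markers, Krt5, Krt14, Krt1 and Krt15 had no count, and Trp63 was called higher in dKO (1.4 at 0 min, adjusted p = 0.0309). Ngfr (-5.27), a neural crest marker, and Kdr (-1.81), an endothelial marker, were called lower at 0 min. The 10 neural crest and Schwann markers together summed to only 4.62 to 5.8 CPM in dKO and 5.6 to 7.05 CPM in WT. The level of Ngfr was therefore low in both genotypes. The 8 endothelial and mural markers summed to 160 to 191 CPM in dKO and 172 to 192 CPM in WT. Melanocyte markers summed to 15 to 19.2 CPM in dKO and 15.1 to 19.5 CPM in WT. The part of these differences in the protocadherin results was not tested.

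In CAFs the same genes gave another picture. None of the 42 members tested was called, where 5.48% of all 15786 genes were called (1.45% higher and 4.03% lower), and DESeq2 called none. At an unadjusted p under 0.05, 5 were higher and 2 lower in dKO, where 12.4% of all genes were higher and 13.5% lower. The 95% interval of the log2 fold change lay between -1 and 1 for all 42. Pcdhga8 was at 6.08, 3.76, 6.0 and 4.3 CPM in dKO CAFs against 5.32, 3.18, 4.48 and 5.09 CPM in WT CAFs (log2 fold change 0.15). Pcdhga12 was at 22.8, 20.8, 27.3 and 26.9 CPM in dKO against 17.5, 24.7, 16.9 and 17.4 CPM in WT (0.36, adjusted p = 0.19). Pcdhb22 was at 14.1, 12.7, 17.2 and 15.6 CPM in dKO against 12.4, 11.5, 14 and 15.2 CPM in WT (0.17). For these 3 genes, all called in iDFs, the CAF genotypes overlapped.

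In CAFs 3 of the 43 genes had genotypes that did not overlap, where 14% of all genes tested did so. Pcdhgc5 was at 32.4, 35.2, 32.9 and 29.5 CPM in dKO CAFs against 60.3, 47.6, 44.9 and 39.8 CPM in WT CAFs. Its log2 fold change of -0.56 (SE 0.1, 95% interval -0.79 to -0.33) had an adjusted p of 0.0138 and did not reach the fold threshold. It was called when no fold threshold was set, but with the longest transcript of each gene alone it was -0.09 (adjusted p = 0.873) and with a length offset -0.33 (adjusted p = 0.561). Pcdhb14 was at 11.3, 10.0, 11.6 and 10.5 CPM in dKO against 8.14, 6.85, 9.08 and 9.52 CPM in WT (0.37, adjusted p = 0.0668), and Pcdhb21 was at 7.78, 7.81, 8.08 and 7.9 CPM against 6.49, 6.12, 6.94 and 7.69 CPM (0.21, adjusted p = 0.199). The other C-type genes overlapped, with Pcdhgc3 at 384 ± 34.7 CPM in dKO and 408 ± 36.2 CPM in WT, and Pcdhgc4 at 36.6 ± 4.45 CPM and 40.4 ± 6.11 CPM (SD, n = 4 each, dKO first). Markers of other cells moved with genotype in the sorted CAFs. The 8 keratinocyte markers summed to 23.0 to 45.8 CPM in dKO against 85.3 to 108 CPM in WT, 6 of them called lower, and the 8 melanocyte markers to 101 to 357 CPM against 376 to 539 CPM, none of either list being at 0. In a bulk or sorted sample, fewer cells of a type and less RNA per cell cannot be told apart.

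**Figure D4:**
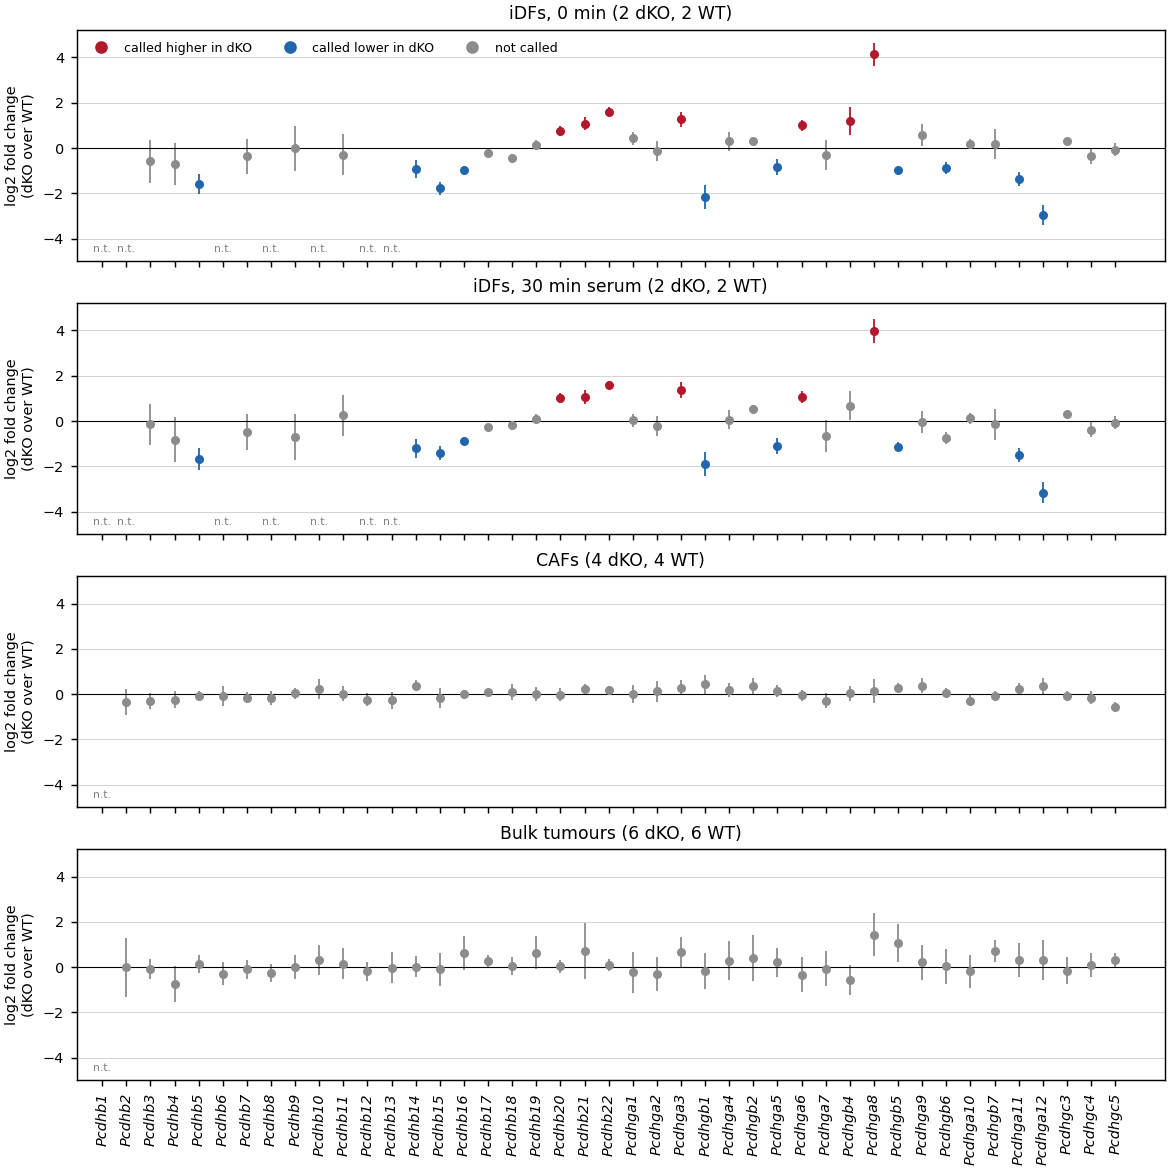
Log2 fold change of dKO over WT for each member, with its 95% interval, in iDFs at 0 and 30 min, CAFs and bulk tumours (panels from top to bottom). Red points were called higher in dKO, blue points called lower, grey points not called, and n.t. marks members below the low-count filter. The 2 iDF panels show the same scatter from -2.94 (Pcdhga12) to 4.13 (Pcdhga8) at 0 min, whereas all CAF points lie between -0.56 and 0.43.

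Whether the dKO against WT difference itself differed between iDFs and CAFs was tested in a joint fit of these 16 libraries. The test was chosen after the separate results were known and used the same libraries as they did. All 17 members called in iDFs at 0 min were called in this difference, and no other of the 42 members tested was (8.74% of all genes). The difference in log2 fold change, iDF minus CAF, was 4.0 for Pcdhga8 (SE 0.38, 95% interval 3.17 to 4.83, adjusted p = 3.23e-05), -3.29 for Pcdhga12 (SE 0.28, -3.91 to -2.67, adjusted p = 1.68e-05) and 1.46 for Pcdhb22 (SE 0.11, 1.22 to 1.71, adjusted p = 5.62e-06). Leaving out single libraries gave 13 to 18 members called, with 13 without dKO 0 min replicate 2. The fit assumes that cultures and mice follow a common relation of spread to expression. In iDFs genotype and line cannot be told apart, so the tested difference may be one between lines, and the iDF replicates are cultures. The log2 fold changes of the 36 members tested in both had a Pearson correlation of -0.02 between iDFs and CAFs, with the same sign in 18.

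Among the other lists in CAFs, Pcdh10 (0.88, adjusted p = 0.0468) was higher and Pcdh8 (-2.71, adjusted p = 0.000949) lower in dKO among 11 tested protocadherins outside the clusters. Pcdh10 was thus called in opposite directions in CAFs and in iDFs. Of 16 genes for protocadherin processing and signalling, 2 were lower in dKO CAFs, Ptk2b (-0.83, adjusted p = 0.00643), a kinase that binds the cytoplasmic tail of γ-protocadherins, and Cdh2 (-1.2, adjusted p = 0.0326), N-cadherin. No gene of the Pcdha cluster, beside the clusters, of CTCF and cohesin or of the silencing regulators was called in CAFs. At an unadjusted p under 0.05, 5 of 12 CTCF and cohesin genes and 6 of 16 silencing regulators were higher in dKO. In both lists 0 were lower, where 12.4% of all genes were higher and 13.5% lower. Their log2 fold changes ran from -0.14 to 0.63 and from -0.08 to 0.57.

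In bulk melanomas no member was called, against 0.0442% of all 18097 genes tested (0.0166% higher and 0.0276% lower), and DESeq2 called none. At an unadjusted p under 0.05, 5 members were higher and none lower in dKO, where 3.55% of all genes were higher and 3.97% lower. Pcdhga8 was again among them. Its lowest, median and highest CPM were 1.71, 2.67 and 3.17 in dKO tumours and 0.381, 1.11 and 2.21 in WT tumours, with 1 or more tumours of each genotype in the overlap (log2 fold change 1.43, SE 0.43, 95% interval 0.48 to 2.39, adjusted p = 0.45). The log2 ratio of its mean CPM was 1.67, 1.74 and 0.47 within batches 1, 2 and 3. Pcdhgb7 was at 4.37, 7.14 and 8.0 CPM in dKO against 2.79, 3.99 and 6.0 CPM in WT (0.73, adjusted p = 0.45), with within-batch log2 ratios of 0.83, 0.45 and 0.79. Pcdhgb5 was at 5.9, 10.3 and 12.5 CPM against 2.5, 4.32 and 10.2 CPM (1.08, adjusted p = 0.545), and the log2 fold changes of Pcdhga3 and Pcdhb17 were 0.68 and 0.28 (adjusted p = 0.652 and 0.639). Without single tumours these log2 fold changes ranged over 1.18 to 2.19 for Pcdhga8, 0.34 to 0.99 for Pcdhgb7, 0.63 to 1.67 for Pcdhgb5 and 0.4 to 1.29 for Pcdhga3. All 4 were highest without WT replicate 4, and the last 3 were lowest without dKO replicate 5. Pcdhgb5 was lower in dKO iDFs, so it did not share a direction between the 2 kinds of sample.

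The abundant members overlapped between the tumour genotypes. Pcdhgc3 was at 210, 300 and 389 CPM in dKO (lowest, median and highest) against 133, 312 and 454 CPM in WT, Pcdhgc4 at 115, 186 and 238 CPM against 98.0, 160 and 227 CPM, and Pcdhgc5 at 6.69, 7.9 and 11.2 CPM against 5.07, 6.38 and 8.61 CPM. Pcdhb7 was at 15.7, 17.9 and 20.9 CPM in dKO and 12, 20.4 and 23.3 CPM in WT. None of the 43 genes had tumour genotypes that did not overlap, where 0.669% of all genes tested did so. For 25 of the 42 members tested the 95% interval lay between -1 and 1, and for the other 17 a difference beyond these bounds was not excluded. Marker levels varied between tumours too, with fibroblast markers at 12300 to 51500 CPM and keratinocyte markers at 3860 to 15600 CPM over the 12 tumours. Their part in the spread was not tested. No gene of the other lists on protocadherins and their regulators was called in tumours.

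CD8+ T cells held few clustered protocadherin reads. At most 29 of the 43 genes were above 0 in a library, and 6 passed the filter. None of the 6 was called (0.495% of all 14944 genes were called, 0.261% higher and 0.234% lower), none had an unadjusted p under 0.05, and DESeq2 called none. Pcdhgc3 was at 1.71, 3.45, 6.69 and 5.56 CPM in dKO against 16.6, 5.04, 3.64 and 6.56 CPM in WT (log2 fold change -0.9, 95% interval -1.96 to 0.16). The highest value belongs to WT replicate 1, which also held the most melanocyte marker reads, 253 CPM against 6.25 to 15.8 CPM in the other 7 libraries, and which had 29 members above 0 against 6 to 18. Its fibroblast markers, at 2070 CPM, were below those of dKO replicates 3 and 4 (3330 and 2450 CPM) and above those of the remaining libraries. The part of other cells in these values was not tested. Pcdhgc4 was at 0.877, 0.107, 0.443 and 2.84 CPM in dKO against 7.33, 0.052, 3.64 and 3.46 CPM in WT (-2, adjusted p = 0.651), and Pcdhb7 had a log2 fold change of -2.75 (95% interval -6.43 to 0.93). The intervals of Pcdhgc3 and Pcdhb7 include 0 and differences larger than any seen in CAFs.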

How the data were processed

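Poly(A) RNA was measured in 36 libraries. The authors estimated counts and TPM per transcript with Salmon 1.2.1 on Gencode transcripts of GRCm38.p6 from single reads of 75 bases, and the deposited files also hold transcript lengths in bases. Deposited expected counts were summed per gene with Gencode release M21, which held 99.15% of the transcripts, and rounded. Deposited TPM values were summed per gene to compare genes.

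edgeR 4.0.16 (R 4.3.3) used TMM factors, filterByExpr (minimum count 10, minimum total 15) and robust quasi-likelihood tests, with terms for batch and sex in tumours, sex in CAFs and CD8+ T cells, and 4 groups in iDFs. On simulated counts with a log2 fold change of 1, edgeR recovered 21% of changed genes in the tumour design, 85.7% in CAFs, 2.08% in CD8+ T cells and 92.9% in iDFs at 0 min. The simulation gave all genes of a tissue the same relative spread and drew changed genes from all expression levels. These rates are therefore not those of the members. The members and lists were chosen with earlier results of these data known. Any member could be named. Full statistics were given for called members, or for the 8 with the smallest p where more were called. The C-type genes, the leading 3 members by TPM per cell type and at most 2 called genes per direction of each other list were also named. Alternatives included DESeq2 1.42.0, other filters, scalings and transcript sets, and leaving out each library. Promoter motifs were not analysed here. A further allele carried by all tumour-bearing mice is not reported here.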

Additional observations from a re-analysis of the deposited data

Results flagged for a closer look

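In the joint fit, the dKO against WT difference of iDFs at 0 min differed from that of CAFs for 17 members, which is the reason they are listed here. In iDFs genotype and line cannot be told apart. The difference in log2 fold change (iDF minus CAF) was positive for Pcdhga8 (4.0), Pcdhb22 (1.46), Pcdhgb4 (1.19), Pcdhga6 (1.08), Pcdhga3 (1.0), Pcdhb21 (0.88) and Pcdhb20 (0.79). It was negative for Pcdhga12 (-3.29), Pcdhgb1 (-2.56), Pcdhb15 (-1.59), Pcdhga11 (-1.57), Pcdhb5 (-1.5), Pcdhb14 (-1.29), Pcdhgb5 (-1.23), Pcdhga5 (-0.96), Pcdhb16 (-0.96) and Pcdhgb6 (-0.93). For Pcdhb14 the genotypes did not overlap in either cell type and lay in opposite directions, lower in dKO iDFs and higher in dKO CAFs. Such a lack of overlap was seen for 14% of all genes in CAFs, and its share in iDFs was not computed. No library stood apart from its group by Dixon's criterion in any of the 58 groups of values examined. These were cluster sums in tumours, CAFs and CD8+ T cells, and single members in tumours and CAFs. The members were the C-type genes, the leading 3 by TPM in tumours, CAFs and iDFs, and those at an unadjusted p under 0.05 in tumours. Groups of 2 iDF libraries were too small to be examined.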

How the results depend on the processing

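Under other tools, scalings, filters and transcript sets, 136 counts of called members stayed within 1.5 times the reported count and 2 did not, and all 104 counts without 1 library stayed within it. The exceptions were 1 member called lower in CAFs without a fold threshold (Pcdhgc5) and 3 called lower in CD8+ T cells without the low-count filter (Pcdhb16, Pcdhb11 and Pcdhgb7). Most of the counts compared belong to tumours, CAFs, CD8+ T cells, serum or the interaction, where no member had been called. They therefore say little about the iDF calls. Over all alternatives, iDFs had 5 to 10 members higher and 9 to 12 lower in dKO at 0 min, and 6 to 8 higher and 9 to 11 lower at 30 min. With the longest transcript alone, the log2 ratio of sums at 0 min was 0.16 for Pcdhb and -0.31 for Pcdhga and Pcdhgb, and at 30 min 0.22 for Pcdhb. Without single libraries it was 0.19 to 0.34 for Pcdhb and -0.31 to -0.15 for Pcdhga and Pcdhgb at 0 min, and 0.28 to 0.36 for Pcdhb and 0.25 to 0.28 for Pcdhgc at 30 min.

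Every reversal among fold changes concerned a C-type gene that was not called. For Pcdhgc5 the log2 fold change was -0.02 in tumours, 0.11 in iDFs at 0 min and 0.18 at 30 min with the longest transcript alone. With a length offset Pcdhgc5 was at 0.44 at 0 min, 0.41 at 30 min, 0.51 for serum in dKO and 0.54 for serum in WT. Without single libraries Pcdhgc5 ranged over -0.22 to 0.09 at 0 min, -0.13 to 0.14 for serum in dKO and -0.16 to 0.15 for serum in WT. In tumours Pcdhgc3 ranged over -0.73 to 0.39, its highest without WT replicate 4, and Pcdhgc4 over -0.37 to 0.41, its lowest without dKO replicate 5. The cause was not tested.

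With the replicate number as a block (replicate block), iDFs had 6 members higher and 10 lower at 0 min and 6 higher and 9 lower at 30 min, Pcdhb20 being the one lost. Deviations of same-numbered iDF samples correlated at 0.02 to 0.15, so the numbers were not taken to pair the samples. The joint test of iDFs and CAFs and its alternatives were chosen after seeing the data.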
